A study of Drosophila melanogaster with 2 samples.

Results

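The Rab genes encode small GTPases of the Ras superfamily that mark the membranes of a cell and direct vesicle budding, transport and fusion. Members were taken by symbol: every gene of the deposited table whose symbol begins with Rab and a digit or with RabX, leaving out exchange factors and activating proteins; no symbol began with Rab-RP. This gave 32 Rab genes among 13623 genes. The rule itself uses no measured value, but the family was picked for description, and the lists of partners and other families were drawn up, with earlier results of these data known. The gene ltd, now named Rab32, falls outside this rule because the table lists it under its older symbol.

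A Rab protein is switched on when an exchange factor loads it with GTP, and it then recruits effectors such as tethers and motors. An activating protein makes it hydrolyse the GTP, and GDP dissociation inhibitor takes the inactive form off the membrane. Each compartment has its own members, and neurons use Rabs both for the secretory and endosomal traffic of every cell and for the release of synaptic vesicles.

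Nuclear RNA was sequenced from 1 library of neural stem cells (NSCs) and 1 library of neurons, purified from Drosophila melanogaster embryos by INTACT, in which tagged nuclei are pulled out of a homogenate with antibody-coated beads. The NSC library came from embryos aged 5 to 7 h after egg laying, collected from self-crossed Sca-Gal4/cyo flies. The neuron library came from Elav-Gal4 embryos aged 12 to 14 h. Both lines also carried the tag transgene UAS-3xFLAG-blrp-mCherry-RanGap, which the study's methods describe as also expressing the biotin ligase BirA, switched on by GAL4 under the scabrous (sca) driver or the elav driver. The NSC parents carried the driver over a CyO balancer, so their embryos need not all have had this genotype. Each library pooled many embryos. The cell type, the age of the embryos and the driver cannot be told apart, and the collection and ageing times in the labels do not add up to the stated ages. With 1 library per group no difference below has a replicate check, and no p-value is given.

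Values are FPKM, fragments per kilobase of transcript and per 1000000 mapped fragments, so that levels of different genes are compared per length. The change of a gene is log2((neuron FPKM + 1)/(NSC FPKM + 1)). The added pseudocount makes the change of low genes look smaller than it is. A gene was compared if it reached 1 FPKM in at least 1 library, and 2-fold means a log2 change at or past 1 in size. Low FPKM values move in steps of whole fragments, which put the depth at about 65.3 M mapped fragments in NSCs and 69.6 M in neurons (M, 1000000). The driver genes were 64.0 FPKM in NSCs against 4.72 FPKM in neurons for sca and 46.5 and 77.0 FPKM for elav. The 10 NSC markers summed to 660 FPKM in NSCs against 346 FPKM in neurons, and 4 of them were lower there by 2-fold or more. The 10 neuronal markers summed to 85.5 and 658 FPKM, and 9 were at least 2-fold higher. Markers of other tissues were present as well: 5 muscle genes summed to 668 FPKM in NSCs against 3347 FPKM in neurons, 5 tracheal genes to 122 and 1460 FPKM, 5 hemocyte and fat body genes to 116 and 775 FPKM, and 5 glial genes to 79.96 and 114.5 FPKM. The sums of 4 epidermal genes (192 and 114 FPKM) and 4 germline genes (65.5 and 35.7 FPKM) were lower in neurons. Within lists the members differed in direction. Most of the epidermal sum in NSCs was Cpr47Eg, at 158 FPKM against 33.5 FPKM in neurons. The epidermal genes sha (0.422 and 43.7 FPKM) and ss (1.92 and 9.60 FPKM) were higher in neurons, and the median log2 change of the 4 was 0.82. Among the germline genes vas was higher in neurons (log2 change 1.15) and the other 3 were lower. Of the tracheal genes, 4 of 5 were above their NSC level in neurons, whereas btl was 16.5 and 5.72 FPKM (log2 change -1.38). Among the glial genes repo and moody were higher in neurons (3.38 and 1.56) and Eaat1 was at 0.15. The glial genes gcm and loco were at -0.59 and -0.01, and the median of the glial list was 0.15. The hemocyte gene Hml was below 1 FPKM in both libraries. No marker of these lists was at 0 in either library.

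Of the 32 Rab genes, 24 were detected at 1 FPKM in NSCs and 25 in neurons. Those 25 passed the filter, and the other 7 stayed below 0.3 FPKM in both libraries. As deposited, the libraries held nearly the same summed Rab level, 1484 FPKM in NSCs against 1450 FPKM in neurons. All genes summed to 805334 FPKM in NSCs and 669144 FPKM in neurons, so the Rab share was 0.184% and 0.217%. Most of the Rab sum came from few genes, since the 10 highest members carried 86.4% of it in NSCs and 79.7% in neurons. The same genes were the 10 highest in both: Rab1, Rab2, Rab5, Rab6, Rab7, Rab8, Rab10, Rab11, Rab14 and Rab35, which serve the general secretory and endosomal routes. The order within them differed. Rab8, Rab35 and Rab10 followed Rab11 and Rab2 in NSCs, whereas Rab1, Rab7 and Rab5 followed them in neurons. Across the 25 genes Spearman's correlation of the level between the libraries was 0.913, compared with 0.771 across the 10030 genes of known length that passed the filter. This is a description across genes, which are not replicates.

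**Figure D1:**
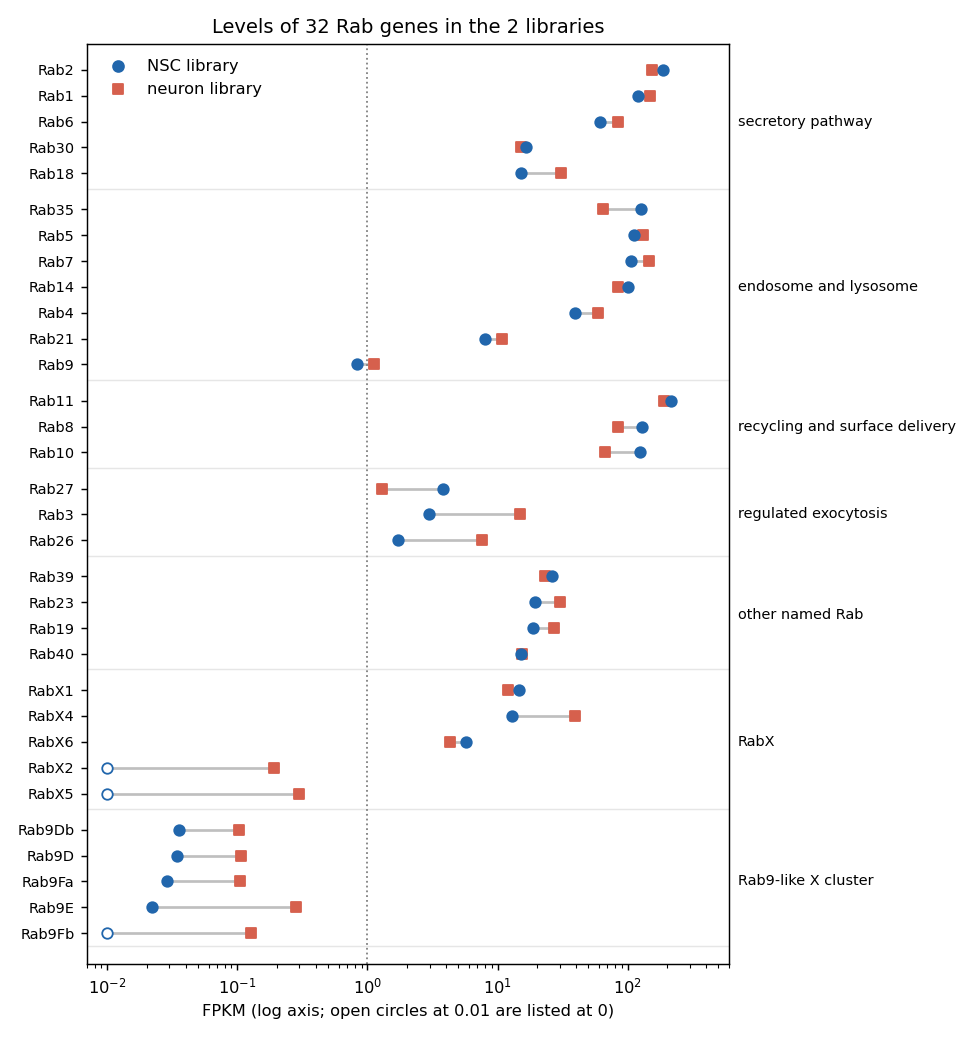
FPKM of the 32 Rab genes on a log axis, grouped by role, with circles for the NSC library, squares for the neuron library and a dotted line at 1 FPKM; each point is 1 value of 1 library. Most pairs of points lie close together above 10 FPKM, the regulated exocytosis Rabs are low and far apart, and 7 genes lie below 0.3 FPKM.

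Between the libraries 3 of the 25 compared Rab genes (12.0%) were higher in neurons by at least 2-fold and 1 was lower by as much. Of all 10158 genes compared, 26.9% passed 2-fold upwards and 16.6% downwards, 43.5% in either direction. The higher genes were Rab3, Rab26 and RabX4, and the lower gene was Rab27. The remaining 21 genes (84.0%) stayed within 2-fold, compared with 56.5% of all genes. The median log2 change of the 25 was 0.22 and that of all genes was 0.14; without the filter they were 0.20 over all 32 Rab genes and 0.07. Scaling each library to the same sum (TPM scaling) moved the median of all genes to 0.41 and that of the Rab genes to 0.40, and gave 4 Rab genes higher and 0 lower, with 3500 of all genes higher and 1198 lower compared with 2735 and 1684 as deposited. Fewer cells of a type and less RNA per cell cannot be told apart in such bulk samples.

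**Figure D2:**
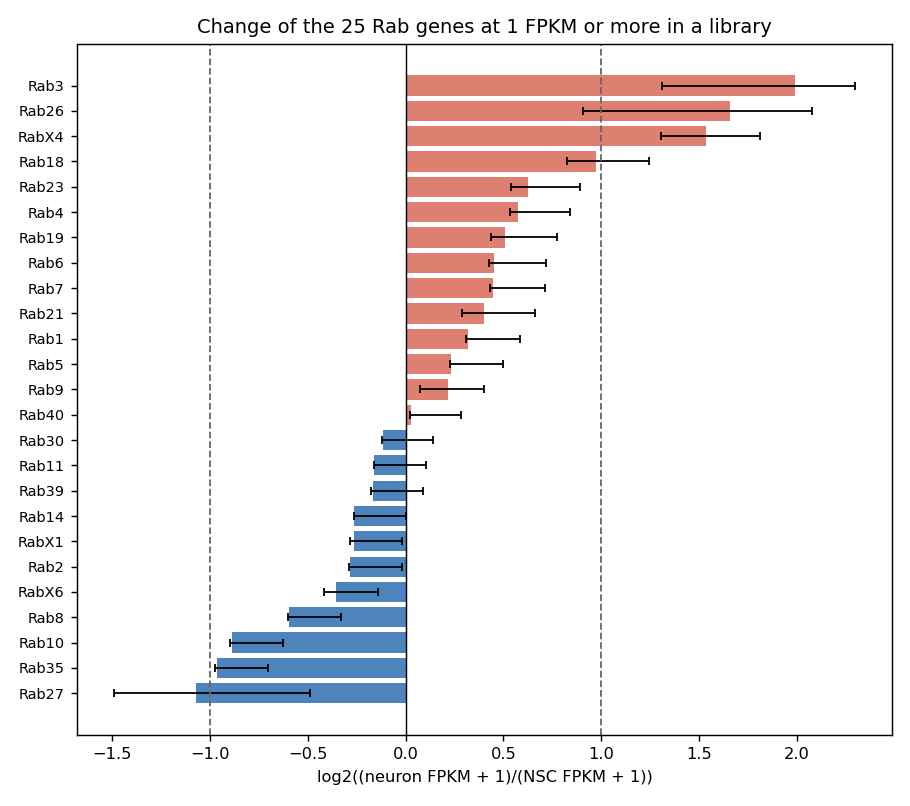
Log2 change from NSCs to neurons of the 25 Rab genes at 1 FPKM or more in at least 1 library, with lines for the lowest and highest value under other pseudocounts and scalings (not replicate error) and dashed lines at 2-fold. Rab3, Rab26 and RabX4 pass 2-fold upwards and Rab27 downwards; the lines of Rab18, Rab26 and Rab27 cross the 2-fold limit, and those of Rab30, Rab11, Rab39 and Rab14 cross 0 under TPM scaling.

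The Rabs of regulated exocytosis had low levels in both libraries. All 3 differed by 2-fold or more, as did 43.5% of all genes compared. Rab3, the GTPase of synaptic vesicles that helps to prepare release sites, was 2.98 FPKM in NSCs against 14.8 FPKM in neurons, a 4.97-fold ratio (log2 change 1.99.) It was the largest change of the family. Rab26, which in mammals is found on secretory granules and synaptic vesicles, was 1.73 FPKM in NSCs against 7.62 FPKM in neurons, a 4.41-fold ratio (log2 change 1.66.) With a pseudocount of 5 FPKM the value of Rab26 was 0.91, under 2-fold. Rab27, which in mammals docks secretory granules at the plasma membrane, went the other way, at 3.82 FPKM in NSCs against 1.296 FPKM in neurons, with a log2 change of -1.07. The NSC level of Rab27 was 2.95 times the neuron level and rested on about 341 fragments in NSCs and 123 in neurons, a counting error of 5.42% and 9.01%. Under TPM scaling its log2 change was -0.97 and with a pseudocount of 5 FPKM -0.49, both under 2-fold. By rank among all genes Rab3 moved from percentile 44.3 in NSCs to 60.1 in neurons, Rab26 from 39.3 to 48.0, and Rab27 from 46.6 to 29.8. In the neuron library Rab3 was thus a gene of middle level and stayed far below Rab11, at percentile 96.9 in both libraries. The summed levels of the neuronal, muscle, tracheal, hemocyte and fat body and glial markers given above were also higher in the neuron library. Those of the NSC, epidermal and germline markers were lower. Members of the glial, tracheal, NSC, epidermal and germline lists went both ways. The part of all these markers in the differences of the Rab genes was not tested.

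Rab3 acts with a small set of partners, of which 5 had been listed. Rim, the active zone scaffold that binds Rab3 on vesicles, was 1.64 FPKM in NSCs against 17.8 FPKM in neurons, with a log2 change of 2.83 and the highest of all listed effectors. The exchange factor rab3-GEF was 0.762 and 4.23 FPKM, with a log2 change of 1.57. Both were thus at least 2-fold higher in neurons, as was Rab3 itself. They made up 2 of the 5 listed partners (40%), compared with 26.9% of all genes. With a pseudocount of 5 FPKM, however, rab3-GEF was at 0.68, under 2-fold. Rph, the fly rabphilin and a further Rab3 effector, was low in both libraries, with 0.571 FPKM in NSCs against 1.79 FPKM in neurons (0.83). The subunits of the Rab3 activating complex were within 2-fold: rab3-GAP was 12.3 and 13.1 FPKM (0.08) and CG31935, now named Rab3GAP1, was 6.72 and 11.2 FPKM (0.66). The activating subunits were therefore above Rab3 in NSCs and below it in neurons on the FPKM scale.

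**Figure D3:**
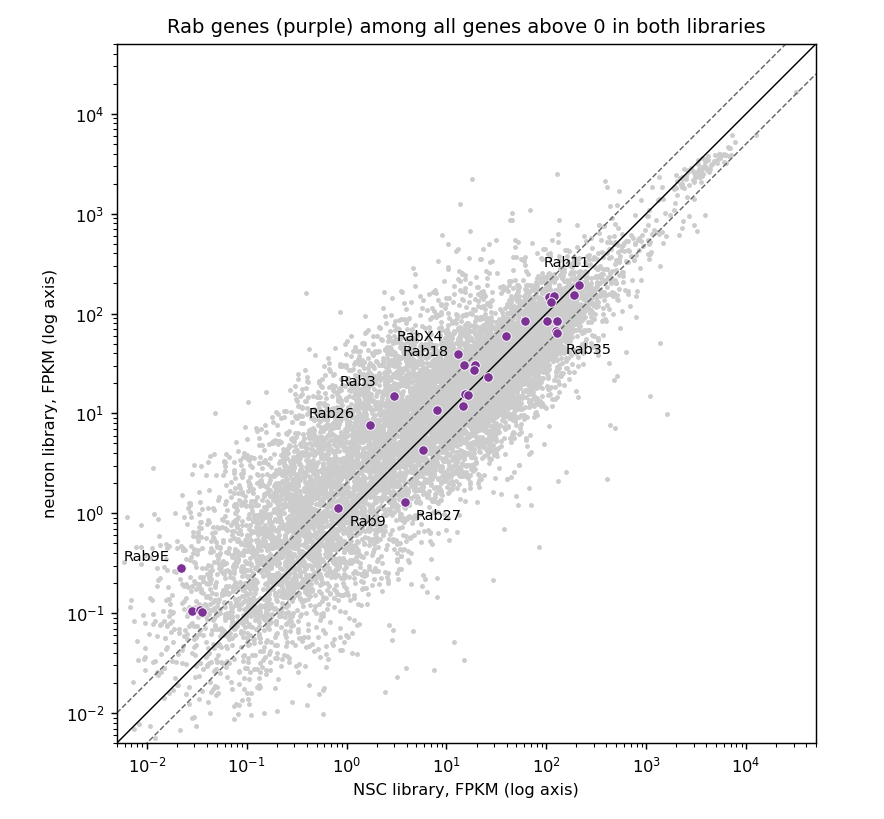
FPKM in the neuron library against FPKM in the NSC library on log axes for all genes above 0 in both (grey) and the Rab genes among them (purple), with a line of equal level and dashed lines at a 2-fold ratio. Rab3, Rab26 and RabX4 lie above the upper dashed line, Rab27 and Rab35 lie near or below the lower one, and the other Rab genes above 1 FPKM lie close to or between the dashed lines.

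The RabX genes were named without an assigned role. RabX4 had 12.9 FPKM in NSCs against 39.3 FPKM in neurons, a 3.04-fold ratio (log2 change 1.53), and its rank moved from percentile 61.3 to 81.0. It was the highest in neurons of the 4 Rab genes past 2-fold and stayed past it under every pseudocount and scaling tried (1.31 to 1.81). The annotation places 131 exonic bases of RabX4 (9.25%) on exons of the gene Kaz on the same strand. RabX1 was 14.6 and 12.0 FPKM (-0.27) and RabX6 5.77 and 4.29 FPKM (-0.35), both within 2-fold. RabX6 shares 36.2% of its exonic bases with Vti1a on the opposite strand, and since strandedness was not stated its value may include reads of that gene. RabX2 and RabX5 were listed at 0 in NSCs and were 0.193 and 0.299 FPKM in neurons, below the filter.

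All 5 Rabs of the secretory pathway stayed within 2-fold, with a median log2 change of 0.32. Rab1, which carries cargo from the endoplasmic reticulum to the Golgi, was 119.5 FPKM in NSCs against 149 FPKM in neurons (0.32). An antisense RNA gene covers 41.1% of the exonic bases of Rab1, so part of this level may belong to it. Rab2, which acts at the Golgi and, in flies, in delivery to lysosomes, was 187 and 154 FPKM (-0.29) and was the second highest member in each library. Rab6, a Golgi Rab, was 61.0 and 83.8 FPKM (0.45). Rab30, a Golgi Rab in mammals, was 16.5 and 15.2 FPKM (-0.11), which TPM scaling turned to 0.14. Rab18, found on lipid droplets and the endoplasmic reticulum in mammals, was 15.1 FPKM in NSCs against 30.6 FPKM in neurons. Its log2 change of 0.97 lay just inside the 2-fold limit, although its FPKM ratio was 2.03, and TPM scaling placed it at 1.24. Rab18 and Rab35 were the members just inside the limit and Rab27 the one just outside.

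The endosomal and lysosomal Rabs also stayed within 2-fold, all 7 of them, but not in the same direction. Rab5, which defines early endosomes, was 112 FPKM in NSCs against 132 FPKM in neurons (0.23), and Rab7, which defines late endosomes and lysosomes, was 107 and 146 FPKM (0.45). Rab4, a Rab of fast recycling, was 39.7 and 59.6 FPKM (0.57). The early, late and fast recycling Rabs were thus somewhat higher in neurons, as was Rab21, an early endosomal Rab, at 7.999 and 10.9 FPKM (0.40). Rab14, which acts between endosomes and the Golgi, was 100.6 and 83.7 FPKM, with a log2 change of -0.26 that was 0.0022 under TPM scaling. Rab35, which recycles cargo from endosomes to the surface, was 127 FPKM in NSCs against 64.3 FPKM in neurons. Its log2 change of -0.97 was the lowest of this group, and its rank moved from percentile 94.3 to 89.1. Rab9, a Rab of late endosomes in mammals, was near the 1 FPKM cut used here for detection, at 0.828 and 1.13 FPKM (0.22).

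The Rabs grouped here under recycling endosomes and delivery to the cell surface were Rab8, Rab10 and Rab11. All were lower in neurons as deposited, none of them by 2-fold. This grouping leaves out Rab4 and Rab35, which also act in recycling and are described above: Rab4 was higher in neurons (0.57) and Rab35 lower (-0.97). Rab11, the Rab of recycling endosomes, was the highest Rab gene in each library, with 214 FPKM in NSCs against 191 FPKM in neurons. Its log2 change of -0.16 was 0.11 under TPM scaling. Rab8 and Rab10, close relatives that carry cargo from the Golgi to the surface, were 129 and 85.0 FPKM (-0.60) and 125 and 67.2 FPKM (-0.89), and stayed below 0 under TPM scaling at -0.33 and -0.63. Together these 3 genes summed to 468 FPKM in NSCs against 344 FPKM in neurons. The sum of the 5 secretory Rabs was 399 and 433 FPKM, and that of the 7 endosomal Rabs 494 and 497 FPKM. These sums are as deposited, before TPM scaling, which raises every neuron to NSC ratio by 0.27 (log2). The shares of the Rab sum held by Rab35, Rab10 and Rab8 went from 8.53%, 8.45% and 8.69% in NSCs to 4.44%, 4.64% and 5.86% in neurons, and those of Rab1 and Rab7 from 8.05% and 7.21% to 10.3% and 10.1%. A set of 1397 genes at 50 FPKM or more in both libraries had a median log2 change of -0.26, and 74.95% of them stayed within 2-fold. The 10 Rab genes at that level had a median of -0.21, and all of them stayed within 2-fold.

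The other named Rabs were of middle level. Rab23, which acts in planar polarity of the fly wing, was 19.3 FPKM in NSCs against 30.3 FPKM in neurons (0.63). Rab19 was 18.9 and 27.3 FPKM (0.51), and Rab39 was 26.3 and 23.3 FPKM (-0.17, or 0.089 under TPM scaling). Rab40, whose mammalian relatives carry a SOCS box and take part in ubiquitin ligases, was 15.2 and 15.5 FPKM, the smallest log2 change of the 25 genes at 0.03. None of these 4 genes reached 2-fold.

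The Rab9-like genes Rab9D, Rab9Db, Rab9E, Rab9Fa and Rab9Fb lie on the X chromosome within 363 kb and have no introns in the annotation. Their levels lay between 0 and 0.0358 FPKM in NSCs and between 0.103 and 0.282 FPKM in neurons. With RabX2 and RabX5 they made up the 7 genes below the filter, of which 3 were listed at 0 in NSCs. All 7 were above their NSC value in neurons, but these values rested on at most about 1.57 estimated fragments in NSCs and on 4.82 to 15.1 in neurons. Among 1645 genes below 0.3 FPKM in both libraries and above 0 in at least 1, 73.4% were higher in neurons. Genes so similar to each other can share reads, and only uniquely mapped reads were used, so the values of the 5 Rab9-like genes are uncertain.

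Next, the genes that act on Rabs were examined. Of 61 genes listed, 60 were found and all of them passed the filter; 9 were higher in neurons by at least 2-fold and 1 was lower. Their median log2 change was 0.44, and 47 of the 60 (78.3%) were above 0, compared with 54.3% of all genes. The share past 2-fold upwards was 15%, below the 26.9% of all genes. By kind, 4 of 16 exchange factors, 3 of 12 activating proteins, 2 of 27 effectors and tethers and 0 of 5 genes of the membrane cycle were at least 2-fold higher. Gdi, the GDP dissociation inhibitor that serves all Rabs, was 98.3 FPKM in NSCs against 156 FPKM in neurons (0.66). Rep, the escort protein that presents new Rabs for prenylation, was 10.9 and 10.4 FPKM, with a log2 change of -0.06 that was 0.19 under TPM scaling. The lipid transferase subunit gene betaggt-II was the highest of the 5 membrane cycle genes at 0.70, and l(1)G0144, now named temp, the lowest at -0.23 (0.020 under TPM scaling).

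**Figure D4:**
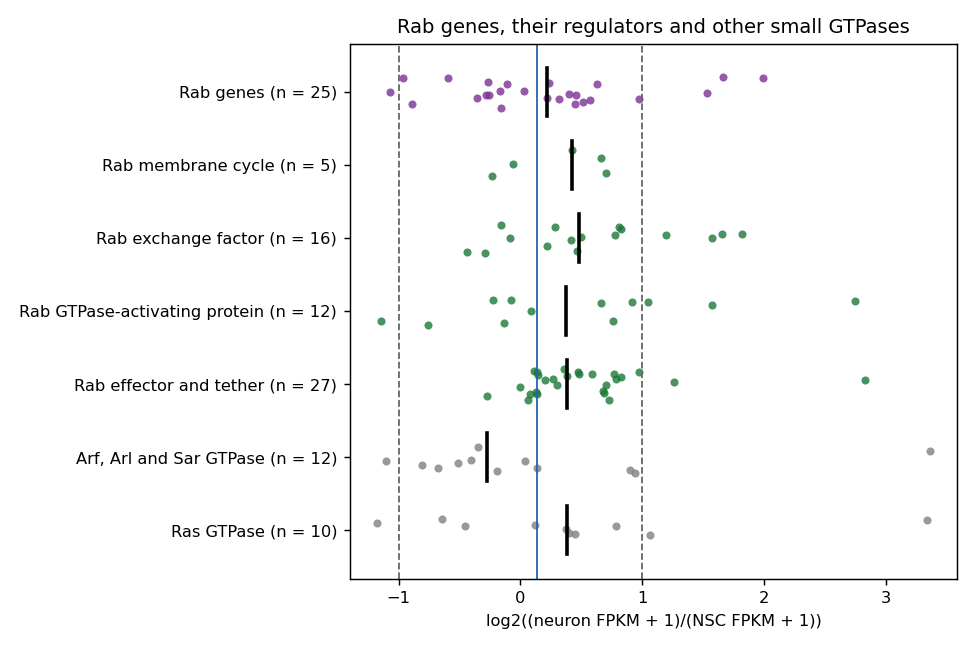
Log2 change from NSCs to neurons of the compared Rab genes, of genes that act on Rabs and of other small GTPase families; each point is 1 gene, black bars are medians, the blue line is the median of all genes and dashed lines mark 2-fold. The 4 lists of genes that act on Rabs have medians of 0.37 to 0.48, above the Rab genes at 0.22; the Arf median lies below 0.

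Partners were then set beside the Rab they act on. The Rab5 gene was within 2-fold. Of its 6 listed partners 1 was at least 2-fold higher in neurons (16.7%, compared with 26.9% of all genes). This was spri, an exchange factor, with 8.10 and 27.6 FPKM (1.65). The other 5 partners of Rab5 were within 2-fold. For Rab7, 8 of 10 partners (80%) were within 2-fold, compared with 56.5% of all genes. Its exchange complex of Mon1 and Ccz1 was at -0.16 and -0.29. Tbc1d15-17, whose mammalian relative inactivates Rab7, was 22.8 and 9.75 FPKM (-1.14), the lowest of the listed activating proteins, and CG6613, the fly Plekhm1 and in mammals a Rab7 effector, was 3.35 and 9.43 FPKM (1.26). Tbc1d15-17 no longer reached 2-fold under TPM scaling or with a pseudocount of 5 FPKM (-0.91 in each), and CG6613 did not with that pseudocount (0.79).

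Evi5 and wkd, activating proteins of Rab11 and Rab35, passed 2-fold upwards, and both Rabs stayed within 2-fold. Of the 12 listed activating proteins, 3 (25%) were at least 2-fold higher, close to the 26.9% of all genes. Evi5, an activating protein of Rab11 in flies, was 6.47 FPKM in NSCs against 49.1 FPKM in neurons. Its log2 change of 2.75 was the highest of the 12 listed activating proteins. The Rab11 effectors nuf and Rip11 were within 2-fold at 0.13 and 0.73. For Rab35, all 3 listed partners were above 0 where Rab35 itself was at -0.97. Above 0 were also 54.3% of all genes and 78.3% of the 60 listed genes that act on Rabs. The activating protein wkd was 5.25 and 17.6 FPKM (1.57), and sky, the activating protein Skywalker that acts on Rab35 at fly synapses, was 17.1 and 33.2 FPKM (0.92). CG18659, whose mammalian relatives are exchange factors of Rab35, was 15.9 and 27.8 FPKM (0.77).

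Of the partners of the remaining Rabs, all 4 listed for Rab8 and Rab10 were within 2-fold. They ranged from -0.44 for strat, listed as CG7787 and the lowest of the exchange factors, to 0.83 for Crag. Within 2-fold were also 56.5% of all genes and 83.3% of the 60 listed genes that act on Rabs. The 4 partners of Rab1 lay between -0.09 and 0.28. Of 5 partners of Rab6, GapcenA, whose mammalian relative inactivates Rab6, reached 2-fold with 12.6 and 27.1 FPKM (1.05), and the other 4 did not. Sbf, an exchange factor of the DENN family that in flies acts on Rab21, was 6.40 and 16.0 FPKM (1.20). With a pseudocount of 5 FPKM both were under 2-fold, GapcenA at 0.87 and Sbf at 0.88. The lowest effector was dor, a subunit of the tether that joins late endosomes and lysosomes, at -0.27.

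To place the family, 2 other families of small GTPases were examined. Of 22 genes of the Arf and Ras families that passed the filter, 3 passed 2-fold upwards in neurons (13.6%, against 26.9% of all genes) and 2 downwards (9.09%, against 16.6%), with a median log2 change of 0.08. The 12 Arf, Arl and Sar genes had a median of -0.27 and ranged from CG7197, now named Arl5, at -1.10 to dnd, the fly Arl3, at 3.36. The 10 Ras genes had a median of 0.38 and ranged from R, the fly Rap1, at -1.18 to Rgk1, which was 0.975 FPKM in NSCs against 19.0 FPKM in neurons (3.34). Under TPM scaling CG7197 and R were at -0.84 and -0.91, within 2-fold. The highest Arf and Ras changes lay above the highest Rab change of 1.99. The lists are small and were not tested against the Rab genes.

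Gene structure was set beside the change, since nuclear RNA holds unspliced transcripts. Over the 25 Rab genes the log2 change had a Spearman correlation of -0.09 with gene span and 0.03 with intronic length, compared with 0.27 and 0.32 across 10030 genes. Rab26 has the longest span of the family (16254 bases), followed by Rab3 (7869 bases), and both were higher in neurons, whereas RabX4 spans 1745 bases. By chromosome arm, the 7 Rab genes on the X that passed the filter had a median log2 change of -0.17, and all 1648 X genes compared had 0.20. The lowest 3 changes of the family, those of Rab27, Rab35 and Rab10, were of X genes, as was that of Rab18, the fourth highest.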

How the data were processed

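The authors prepared nuclear RNA from INTACT-purified nuclei, treated it with DNase, sequenced it on an Illumina HiSeq 2000, aligned reads with TopHat 1.3.1 (dm3, FlyBase transcripts) and computed levels from uniquely mapped reads with Cuffdiff 1.3.0. The labels mention cross-linked embryos, the study's methods embryos without crosslinking. The authors deposited FPKM, 1 value for each gene in each library. Strandedness, read length and total reads were not stated. A copy of the header line stood before every one of the 13623 genes and was dropped.

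Each FPKM column was matched to the sample of that name. Count models were not used on FPKM, and with 1 library per group no test was run. Changes, the filter and thresholds are given in the text. Depth was estimated from the steps of FPKM times exonic length less 200 bases (periodicity strength 0.791 in NSCs and 0.802 in neurons, on a scale with a maximum of 1). Exonic lengths, spans, overlaps and arms came from Ensembl release 115 (BDGP6), another build than the authors', so no coordinates are given and fragment numbers are estimates. Symbols matched directly for 11036 genes, through RefSeq synonyms for 2429 and not for 158; all 32 Rab genes matched. Computations used Python 3.11.15, numpy 2.4.6, pandas 2.3.3 and matplotlib 3.10.9, and were tested on simulated data. All Rab genes are named; of the other lists the highest and lowest member, Gdi, Rep and partners of the Rabs described. The Rab family and the lists were chosen with earlier results of these data known; the symbol rule that gives the members uses no value. Some genes of the lists first drawn up are not reported here. Roles are background knowledge. No protein or promoter sequence was used here. Alternatives were pseudocounts of 0.1 and 5 FPKM, other filters, TPM scaling and setting the median ratio to 0.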

Additional observations from a re-analysis of the deposited data

How the results depend on the processing

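The number of Rab genes at least 2-fold lower in neurons was 1 as reported and 0 with a pseudocount of 5 FPKM, 0 with a filter of 5 FPKM in at least 1 library and 0 under TPM scaling; that gene was Rab27, which is below 5 FPKM. The number higher was 3 as reported and 2 to 4 elsewhere. Rab18 passed 2-fold with a pseudocount of 0.1 FPKM (1.02). The median of the Rab genes stayed above 0 (0.07 to 0.40). TPM scaling, which raises every neuron to NSC ratio by 0.27 (log2), turned the log2 change of Rab11 to 0.11, Rab14 to 0.0022, Rab30 to 0.14, Rab39 to 0.089, Rep to 0.19 and l(1)G0144 to 0.020. The other 28 Rab genes kept their direction under every alternative.

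Counts that moved by over 1.5 times were those of higher exchange factors (4 as reported, 2 with a pseudocount of 5 FPKM, 7 under TPM scaling), higher activating proteins (3, and 5 under TPM scaling), lower activating proteins (1, and 0 under both), higher effectors (2, with 4 and 1 for pseudocounts of 0.1 and 5 FPKM and 6 under TPM scaling), higher Arf genes (1, with 2 for 0.1 FPKM and 3 under TPM scaling), lower Arf genes (1, and 0 under TPM scaling), higher Ras genes (2, with 1 for a filter or a pseudocount of 5 FPKM), and lower Ras genes (1, and 0 under TPM scaling). For all genes, 2735 were higher as reported and 1631 with a pseudocount of 5 FPKM. No paired analysis was possible because each group has 1 library. Depth limits the 7 Rab genes below 0.3 FPKM, where at most about 15.1 fragments decide a value.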

Other observations

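The gene ltd, now named Rab32 and left out by symbol, belongs to the same family and serves lysosome-related organelles such as eye pigment granules. It was 34.2 FPKM in NSCs against 31.1 FPKM in neurons (log2 change -0.13.) The gene ca (claret), an exchange factor that acts with Rab32 in flies, was 5.14 FPKM in NSCs against 20.6 FPKM in neurons (log2 change 1.82), the highest of the 16 exchange factors.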
